A study of Homo sapiens with 15 samples.

Results

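MYH6, CEBPE, SLC7A8 and ZFHX2 are 4 protein-coding genes that lie within 439 kb of each other on chromosome 14, around the locus of the cardiac myosin heavy chains. They are 4 of the 11230 rows of the authors' deposited table and were taken by symbol, each matching 1 row. They were chosen by their values in the 5 group means and by position, so their levels and changes are given as a description. The libraries come from HEK293FT, a fast-growing human embryonic kidney line that carries the SV40 large T antigen. All 15 libraries, control included, received plasmids for dCas9-VP64 (a Cas9 that binds DNA without cutting, fused to a transcription activator) and for an MS2 protein fused to p65 and HSF1, which adds further activator domains. They differed in a pool of 5 guide RNAs, which either had non-targeting sequence (control) or bound in the 50 to 450 bp before the start of 1 TrEx long non-coding RNA. Puromycin at 2 ug/mL was given at 24 hours and polyA RNA was taken at 48 hours after transfection. The 5 groups of 3 libraries are control, trex0108 (target label TrEx108), trex4039 (TrEx4039), trex5008 and trex8168; for the last pair the target labels are exchanged against the titles, and the titles are used here. All groups are the same cell line under transient transfection, and the 5 guides of a pool were not tested singly.

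The members have unrelated roles. MYH6 encodes alpha myosin heavy chain, a motor protein of the contractile filaments in heart muscle, most abundant in the atria. It sits head to tail with MYH7, the gene of the slower beta chain, and the pair is a standard example of neighbouring genes with separate control. CEBPE encodes C/EBP epsilon, a leucine zipper transcription factor needed for the late steps of granulocyte maturation. SLC7A8 encodes LAT2, a light subunit that exchanges neutral amino acids across the plasma membrane in a complex with the SLC3A2 heavy chain, and kidney tubule is one of its main sites. ZFHX2 encodes a large protein with zinc fingers and homeodomains. CRISPR activation recruits activators to the DNA before a start site and raises transcription there; genes that lie near the target are commonly examined beside it.

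The promoters of the 4 genes are shown because the genes moved together in 1 group, so that a reader can compare their sequences. Each runs from 250 bases before to 50 bases after the RefSeq start site, on the minus strand of chromosome 14 in GRCh38.p14, a different build from that of the table. The capitals mark matches to 1 of 5 motifs searched on both strands: the TATA box TATAAA, the AP-1 site TGAGTCA, the GC box GGGCGG, the CCAAT box and the GATA site AGATAA.
MYH6, chr14:23408224-23408523: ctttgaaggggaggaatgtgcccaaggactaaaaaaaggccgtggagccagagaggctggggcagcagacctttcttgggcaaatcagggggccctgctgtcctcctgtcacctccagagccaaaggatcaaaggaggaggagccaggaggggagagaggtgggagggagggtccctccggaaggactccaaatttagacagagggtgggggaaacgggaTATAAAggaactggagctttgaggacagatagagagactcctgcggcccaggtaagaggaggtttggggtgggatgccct
CEBPE, chr14:23119206-23119505: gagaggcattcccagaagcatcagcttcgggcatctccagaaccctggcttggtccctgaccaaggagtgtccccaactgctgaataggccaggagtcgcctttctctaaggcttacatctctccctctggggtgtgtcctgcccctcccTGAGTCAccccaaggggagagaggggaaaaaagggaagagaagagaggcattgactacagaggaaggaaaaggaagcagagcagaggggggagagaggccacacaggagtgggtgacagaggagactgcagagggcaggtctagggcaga
SLC7A8, chr14:23183611-23183910: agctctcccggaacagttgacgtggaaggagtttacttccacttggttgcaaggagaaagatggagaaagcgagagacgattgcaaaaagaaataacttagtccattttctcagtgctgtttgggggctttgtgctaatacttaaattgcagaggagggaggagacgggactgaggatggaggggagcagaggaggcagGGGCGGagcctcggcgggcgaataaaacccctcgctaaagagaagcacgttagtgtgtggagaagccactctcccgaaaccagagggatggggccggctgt
ZFHX2, chr14:23551716-23552015: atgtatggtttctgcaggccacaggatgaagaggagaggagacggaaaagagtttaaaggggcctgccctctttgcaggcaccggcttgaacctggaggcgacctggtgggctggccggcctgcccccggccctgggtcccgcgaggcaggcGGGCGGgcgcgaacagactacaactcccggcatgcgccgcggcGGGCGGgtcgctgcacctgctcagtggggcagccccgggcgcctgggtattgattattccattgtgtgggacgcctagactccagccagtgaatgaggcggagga

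SLC7A8 has 4 start sites in the RefSeq table, and the outermost is shown. Whether the counted SLC7A8 row, which is placed on another build, begins at that site was not tested. The MYH6 window holds 1 TATA box, which begins 30 bases before the start site, and 11.5% of the 35116 promoter windows in the RefSeq table hold this motif. The CEBPE window holds 1 AP-1 site, 100 bases before its start site, a motif found in 4.95% of windows. GC boxes lie in the SLC7A8 window (1 match, 51 bases before the start site) and the ZFHX2 window (2 matches, 98 and 55 bases before it), and 45.0% of windows hold one. No motif of the 5 is present in all 4 windows, and none of the windows holds the CCAAT letters (34.6% of windows) or AGATAA (10.3%). The GC content was 57.7% for MYH6 and CEBPE, 53.0% for SLC7A8 and 65.7% for ZFHX2, all between the lower and upper quartiles of the windows (47.0% and 68.0%). None of the 5 motifs is in more than 45.0% of all windows, so nothing is read from the lack of a shared one.

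In the table, which uses hg19, the 4 rows lie in the order CEBPE (23586245 to 23589465), SLC7A8 (23594441 to 23676551), MYH6 (23845675 to 23878869) and ZFHX2 (23984327 to 24025146). CEBPE and SLC7A8 are separated by only 4.98 kb. A gap of 169.1 kb lies between SLC7A8 and MYH6, and one of 105.5 kb between MYH6 and ZFHX2. The antisense RNA CTD-2201G16.1 (23871736 to 23889217), which ranked 2nd of all rows by log2 fold change in trex0108, shares 7134 bp with the MYH6 row, which is 21.5% of the MYH6 row and 40.8% of its own. The shared stretch is at the high-coordinate end of the MYH6 row, and as RefSeq puts MYH6 on the minus strand this is the end where transcription of MYH6 begins. From CTD-2201G16.1 the gaps are 95.1 kb to ZFHX2, 195.2 kb to SLC7A8 and 282.3 kb to CEBPE. The table does not say which row each guide pool targets.

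The table gives 1 mean per group without values per library. All levels below are therefore the authors' mean normalised counts over 3 libraries, with no SD, and whether single libraries of 2 groups overlap cannot be read from them. As polyA RNA was pooled over each culture, more cells with the RNA and more RNA per cell cannot be told apart. Of 8 genes listed as HEK293 markers 5 had a row (NEFM, INA, KRT8, LIN28B and PAX2), with control means from 368.6 to 5358. None was called in trex0108 at an adjusted p under 0.05. Only 5.65% of the table rose there and 0.249% fell, so nothing is read from this. At the same limit INA and LIN28B rose in trex4039 (log2 fold changes 0.36 and 0.29), while NEFM and PAX2 fell (-0.54 and -0.25). PAX2 also fell in trex5008 (-0.33), and no marker was called in trex8168. None of 7 neuron markers had a row. Of 21 genes of heart muscle contraction 3 had a row and of 18 granulocyte genes 4 had one. A gene without a row was not analysed here, since the table keeps only rows whose lowest adjusted p (the authors' p-value after correction for many tests) over the 4 comparisons is under 0.1.

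MYH6 had an authors' mean of 50.1 in control, 52.0 in trex4039, 47.8 in trex5008, 48.9 in trex8168 and 1184 in trex0108. The other 4 groups stood within 1.09-fold of each other, and trex0108 was 22.8-fold above the highest of them. For MYH6 in trex0108 the authors' deposited table lists a log2 fold change of 3.97 (adjusted p 7.97e-299). Only 4 of the 11230 rows had a larger deposited value in that comparison. By the plain ratio of means MYH6 was 23.6-fold above control. With a pseudocount of 1 added to both means the log2 ratio was 4.54, which ranked 15th of all rows. The heart gene was thus at an even level in 4 groups and stood apart in 1.

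The overlap with CTD-2201G16.1 bears on this value. The antisense RNA had authors' means of 3.40 in control, 7.63 in trex4039, 6.15 in trex5008, 4.59 in trex8168 and 796.6 in trex0108. From control to trex0108 the MYH6 row gained 1134 normalised counts and the CTD-2201G16.1 row 793.2. The kit keeps strand, but no source used here gives the strand setting of the counting, so reads of the shared 7134 bp cannot be assigned to one of the pair. Their part in the MYH6 value was not tested.

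CEBPE stood at a few normalised counts in 4 groups and at a higher one in trex0108. Its authors' means were 4.63 in control, 2.67 in trex4039, 4.87 in trex5008, 4.30 in trex8168 and 146.8 in trex0108. The group trex0108 stood 30.1-fold above the highest other group, while those other groups lay within 1.82-fold of each other at under 5 normalised counts. The authors' deposited table puts CEBPE at a log2 fold change of 2.47 in trex0108 (adjusted p 2.54e-67). By the plain ratio of means it was 31.7-fold above control, and its log2 ratio with a pseudocount of 1 was 4.71. The order of CEBPE and MYH6 depended on the scale: CEBPE was ahead by the log2 ratio with a pseudocount of 1 (4.71 and 4.54) and behind with a pseudocount of 10 (3.42 and 4.31). CEBPE was also behind by the deposited value, where it ranked 12th and MYH6 5th of all rows. By the log2 ratio with a pseudocount of 1, CEBPE ranked 14th and MYH6 15th. No other listed row lies between CEBPE and SLC7A8.

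SLC7A8 had a mean of at least 1663 in every group and was the one gene of the 4 called in more than 1 comparison. Its authors' means were 2114 in control, 1977 in trex8168, 1695 in trex4039, 1663 in trex5008 and 3112 in trex0108. The level in trex0108 was 1.47-fold that of control, the highest of the other 4. SLC7A8 rose in trex0108 by 0.53 on the log2 scale of the authors' deposited table (adjusted p 3.15e-18). It fell in trex5008 (log2 fold change -0.33, adjusted p 7.02e-07) and in trex4039 (-0.30, adjusted p 2.56e-06), again from the authors' deposited table. In trex8168 the authors' deposited table gives -0.09 with an adjusted p of 0.316. The transporter gene was therefore higher than control in 1 group and at 78.7% and 80.2% of control in 2 others. These comparisons share the control libraries, and the difference between target groups was not tested.

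ZFHX2 had the smallest change of the 4 genes in trex0108. Its authors' means were 1522 in control, 1505 in trex5008, 1499 in trex8168, 1402 in trex4039 and 1945 in trex0108. The 4 groups other than trex0108 lay within 1.09-fold, and trex0108 was 1.28-fold above control, the highest of them. For trex0108 the authors' deposited table lists a log2 fold change of 0.32 (adjusted p 0.00855). For trex4039, trex5008 and trex8168 the authors' deposited table lists -0.11, -0.01 and -0.02 (adjusted p 0.38, 0.922 and 0.92). GENCODE annotates an antisense gene across it, ZFHX2-AS1, so the assignment of its reads also depends on the strand setting. Among the 634 rows called higher in trex0108, 173 had a smaller deposited value than ZFHX2 and 373 a smaller one than SLC7A8.

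**Figure D1:**
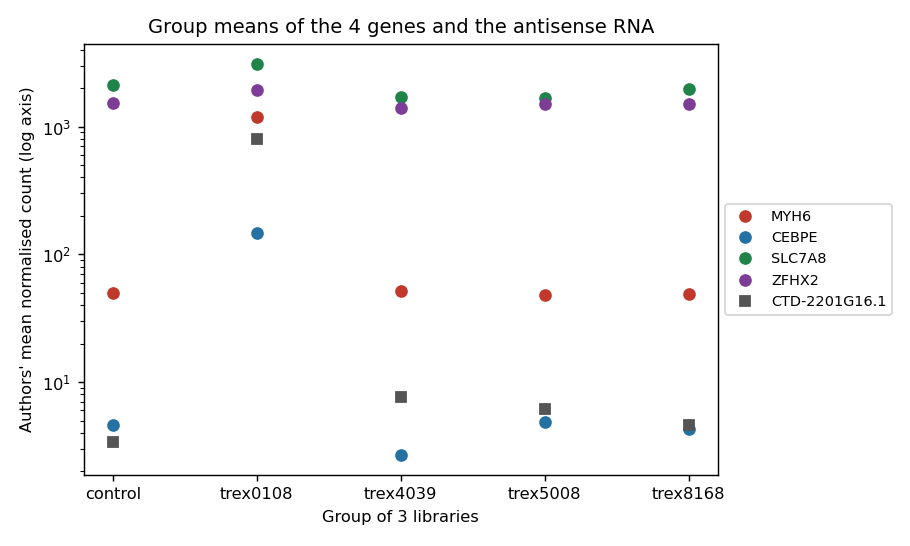
The vertical log axis gives the authors' mean normalised count and the horizontal axis the 5 groups of 3 libraries; each point is 1 gene (circles) or CTD-2201G16.1 (squares), without error bars since the table gives no spread. MYH6 (1184) and CEBPE (146.8) stand apart in trex0108, while SLC7A8 and ZFHX2 stay between 1402 and 3112 in all groups.

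All 4 genes were thus highest in trex0108. Taking the adjusted p of the authors' deposited table below 0.05 as a call, 4 of 4 were higher and 0 lower in trex0108, where 5.65% of all listed rows were higher and 0.249% lower. This is the contrast in which they were picked, and nothing is read from the count. MYH6, CEBPE and ZFHX2, 3 of the 4, pass the authors' own limit of 0.1 in trex0108 alone, so they have a row only because of that comparison. In trex4039, 0 of the 4 were higher and 1 lower (SLC7A8), against 37.1% and 33.7% of the rows with an adjusted p per the authors' deposited table. In trex5008 the counts were likewise 0 higher and 1 lower (SLC7A8), against 29.8% and 24.3%. In trex8168 the counts were 0 and 0, against 14.6% and 6.45%. The 3 genes listed through trex0108 alone could not be called in these other comparisons, so nothing is read from their counts either. The median deposited log2 fold change of the 4 was 1.50 in trex0108 (0.02 over all listed rows), -0.07 in trex4039 (0.03), -0.02 in trex5008 (0.02) and -0.01 in trex8168 (0.04), all from the authors' deposited table. No gene stood at 1.50, which falls between SLC7A8 at 0.53 and CEBPE at 2.47. These medians also follow from the choice of the genes and the filter, and nothing is read from them.

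For each call on the 4 genes the log2 ratio of means (pseudocount 1) exceeded the deposited log2 fold change in size. For CEBPE in trex0108 they differed by 2.24 on the log2 scale and for MYH6 by 0.57, against 0.02 for SLC7A8 and 0.03 for ZFHX2. Among the values not called, CEBPE in trex4039 stood at -0.04 per the authors' deposited table and at -0.61 by the ratio of means, which rests on means of 4.63 and 2.67. CEBPE and MYH6 in trex8168 were at 0.03 and 0.00 per the authors' deposited table and at -0.09 and -0.03 by the ratio, so their sign depended on the scale.

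**Figure D2:**
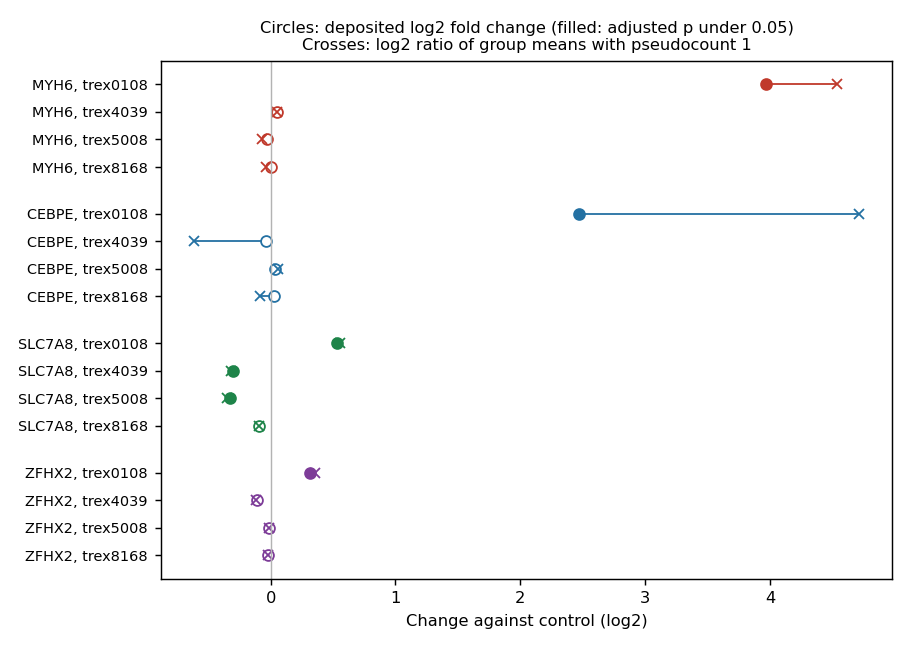
The horizontal axis is the change against control on the log2 scale for each gene in each of the 4 comparisons; circles are deposited log2 fold changes (filled where the adjusted p is under 0.05) and crosses the log2 ratios of group means with a pseudocount of 1. The pair lies far apart for CEBPE in trex0108 (2.47 and 4.71) and nearly coincides for SLC7A8 (0.53 and 0.56) and ZFHX2 (0.32 and 0.35).

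From CEBPE to ZFHX2 the table has 7 rows, of which 6 were higher and 0 lower in trex0108. The ends of this stretch are 2 of the chosen genes, 5 of the 7 rows are in the table only through trex0108, and the count is given as a description from which nothing is read. Without the 4 genes and CTD-2201G16.1, 1 of 2 rows was higher, where 5.65% of all listed rows were. That row is listed through trex0108 alone, so nothing is read from this count either. Besides the 4 genes and CTD-2201G16.1, the unannotated CATG00000018307.1 (23892896 to 23896957), 3.68 kb beyond CTD-2201G16.1, was higher. Its authors' means were 0.289 in control, 0.684 in trex8168 and 16.0 in trex0108, and it is listed at 0 in trex4039 and trex5008. Its log2 fold change was 0.55 (adjusted p 7.08e-10) by the authors' deposited table. By the plain ratio of means it was 55.4-fold above control, and its log2 ratio with a pseudocount of 1 was 3.72. Both ratios rest on the control mean of 0.289, so the size of its change depended on the scale. The remaining row, XLOC_019262, lies 9.74 kb from MYH6 and was not higher: its authors' means were 1239 in control and 1201 in trex0108, and the authors' deposited table lists a log2 fold change of -0.04 (adjusted p 0.999). It is annotated as protein-coding and has no gene name in the table.

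The nearest listed rows outside the stretch were not called in trex0108. On the low-coordinate side C14orf119, 11.9 kb from CEBPE, stood at authors' means of 2562 in control and 2697 in trex0108; its log2 fold change was 0.07 (adjusted p 0.999) by the authors' deposited table. On the other side XLOC_019268, 1.41 kb from ZFHX2, stood at 2815 and 2670, with -0.07 on the log2 scale (adjusted p 0.972) by the authors' deposited table. XLOC_019262 and XLOC_019268 were named after their values were seen. Within 500 kb of CTD-2201G16.1 the table has 11 other rows. Without the 4 chosen genes, 1 of 7 was higher (14.3%) and 0 lower in trex0108, where 5.65% of all rows were higher. The 1 higher row, CATG00000018307.1, and CTD-2201G16.1 itself are listed through trex0108 alone, so nothing is read from this share. From 500 to 1000 kb, 0 of 19 were higher and 0 lower, with deposited log2 fold changes from -0.18 to 0.17. The upper end of that range is NYNRIN, which passes the authors' own limit of 0.1 (0.17, adjusted p 0.0687, per the authors' deposited table). The next row called higher, CATG00000018345.1, lies 1022 kb away (0.26, adjusted p 0.00786, per the authors' deposited table). CATG00000018345.1 and NYNRIN were named after their values were seen. Most of these rows entered the table through other comparisons, and the effect of that filter on the counts was not tested. RefSeq places 16 protein-coding genes from CEBPE to ZFHX2 in GRCh38, and 12 of them, MYH7 among them, have no row under their own symbol. The count of 6 in 7 is therefore a share of listed rows and not of the genes in the stretch.

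In the other comparisons 5 of the 7 rows could not be called, as they are in the table through trex0108 alone. The other 2, SLC7A8 and XLOC_019262, were lower in trex4039 and in trex5008 by the adjusted p of the authors' deposited table. Of the rows with an adjusted p, 33.7% were lower in trex4039 and 24.3% in trex5008. Neither was called in trex8168. XLOC_019262 went from an authors' mean of 1239 in control to 868.2 in trex4039 and 937.0 in trex5008, which are -0.48 and -0.37 on the log2 scale of the authors' deposited table. XLOC_019268, just outside, fell to 52.5% of control in trex4039, 68.8% in trex5008 and 76.2% in trex8168. C14orf119 rose in those 3 groups, by 0.23, 0.17 and 0.20 on the log2 scale of the authors' deposited table. SLC7A8 and XLOC_019262 were both lower in trex4039 and trex5008, and in trex0108 SLC7A8 was higher and XLOC_019262 not called.

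**Figure D3:**
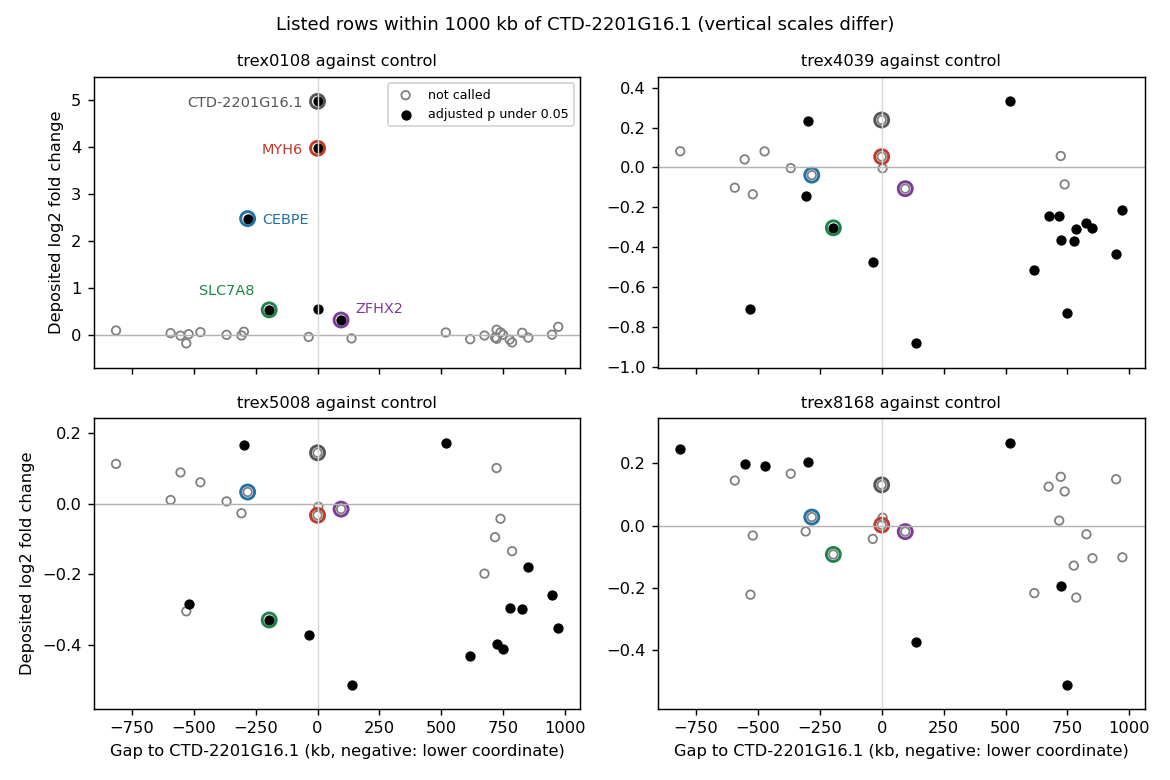
Each panel is 1 comparison; the horizontal axis is the gap in kb to CTD-2201G16.1 (negative towards lower coordinates) and the vertical axis, which differs between panels, the deposited log2 fold change of each listed row within 1000 kb, filled where the adjusted p is under 0.05 and ringed in colour for the 4 genes and CTD-2201G16.1. In trex0108 the filled points are the 4 genes, CTD-2201G16.1 and CATG00000018307.1, and the 19 rows from 500 to 1000 kb are all open.

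Other places also held several rises of trex0108 close together. Each of the 6 risen rows of the stretch had the 5 others within 500 kb. Of all 634 rows higher in trex0108, 44 (6.94%) had at least 5 other higher rows within 500 kb, 6 of them here and 38 on chromosome 19. On chromosome 19 these rows had 16 to 39 listed rows within 500 kb, and here 11 to 15. The limit of 5 is the stretch's own count, and the genes of the stretch were chosen with their trex0108 values known. Its place among the 44 rows was therefore set in advance. As 5 of the 7 rows from CEBPE to ZFHX2 are listed only through trex0108, nothing is read from either count. Over the whole chromosome 14, 24 of 366 listed rows (6.56%) were higher in trex0108, against 5.65% of the table.

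Few genes of the functional lists have a row: 5 of 14 myosin heavy chains, 5 of 14 cardiac transcription factors and 5 of 15 SLC7 and SLC3 transporters. A row called higher in trex0108 is uncommon in the table (5.65%), so nothing is read from a listed gene that was not called. Of 5 listed myosin heavy chain rows MYH6 alone was called in trex0108; MYH7B, MYH9, MYH11 and MYH14 stood at -0.03, 0.01, -0.06 and -0.07 on the log2 scale of the authors' deposited table. The MYH9 and MYH11 rows span only 2.10 and 2.69 kb, with control means of 13.6 and 11.0, and may not stand for the whole genes. MYH14, a non-muscle myosin, fell in trex4039 and trex5008 with -0.46 and -0.33 per the authors' deposited table. TPM1, the tropomyosin gene and the third listed row of heart muscle contraction, was at 0.08 in trex0108 (adjusted p 0.925) and rose in trex4039, trex5008 and trex8168 with 0.26, 0.20 and 0.24 per the authors' deposited table. Of 5 listed cardiac transcription factor genes, MEF2D rose in trex0108 with 0.22 (adjusted p 0.0159 per the authors' deposited table). GATA4, NKX2-5, TBX20 and HAND1 were not called there, at -0.02, 0.15, 0.02 and -0.14 per the authors' deposited table. In trex4039 the same list had 0 higher and 3 lower (MEF2D -0.43, HAND1 -0.36, GATA4 -0.26), where 33.7% of the rows with an adjusted p were lower. In trex5008 it had 0 and 4 (HAND1 -0.41, MEF2D -0.28, GATA4 -0.26, NKX2-5 -0.18), where 24.3% of such rows were lower, all per the authors' deposited table. In trex8168 the authors' deposited table has 2 lower, TBX20 at -0.26 and MEF2D at -0.22, where 6.45% of the rows with an adjusted p were lower.

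CEBPZ, which shares the C/EBP name with CEBPE but not its leucine zipper family, was the other listed row of the C/EBP list. It was at 0.06 in trex0108 and rose in trex4039, trex5008 and trex8168 with 0.31, 0.36 and 0.20 per the authors' deposited table. Of the 4 listed granulocyte genes, CSF3R, the receptor for granulocyte colony-stimulating factor, rose in trex0108 from an authors' mean of 71.8 to 116.2, which the authors' deposited table lists as a log2 fold change of 0.51 (adjusted p 0.00564). AZU1, LCN2 and ITGAM were not called there, at -0.19, 0.01 and -0.10 per the authors' deposited table. AZU1 fell in trex4039 with -0.62, and in trex8168 LCN2 rose with 0.43 and ITGAM fell with -0.45, all per the authors' deposited table.

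Of the 5 listed SLC7 and SLC3 rows SLC7A8 alone was called in trex0108. SLC3A2, the heavy chain that pairs with LAT2, was at 0.15 (adjusted p 0.16), SLC7A5, the related LAT1 gene, at 0.07, SLC7A1 at 0.15 and SLC7A2 at -0.01 per the authors' deposited table. In trex5008 and trex4039 SLC7A5 fell as SLC7A8 did, with -0.34 and -0.32 per the authors' deposited table. SLC7A1 fell in trex4039 with -0.23 and SLC7A2 rose there with 0.20, and SLC3A2 rose in trex5008 with 0.16 and in trex8168 with 0.22, all per the authors' deposited table. ZHX3, the other listed zinc finger and homeobox gene, was at -0.05 in trex0108 and rose in trex4039, trex5008 and trex8168 with 0.18, 0.23 and 0.24 per the authors' deposited table.

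**Figure D4:**
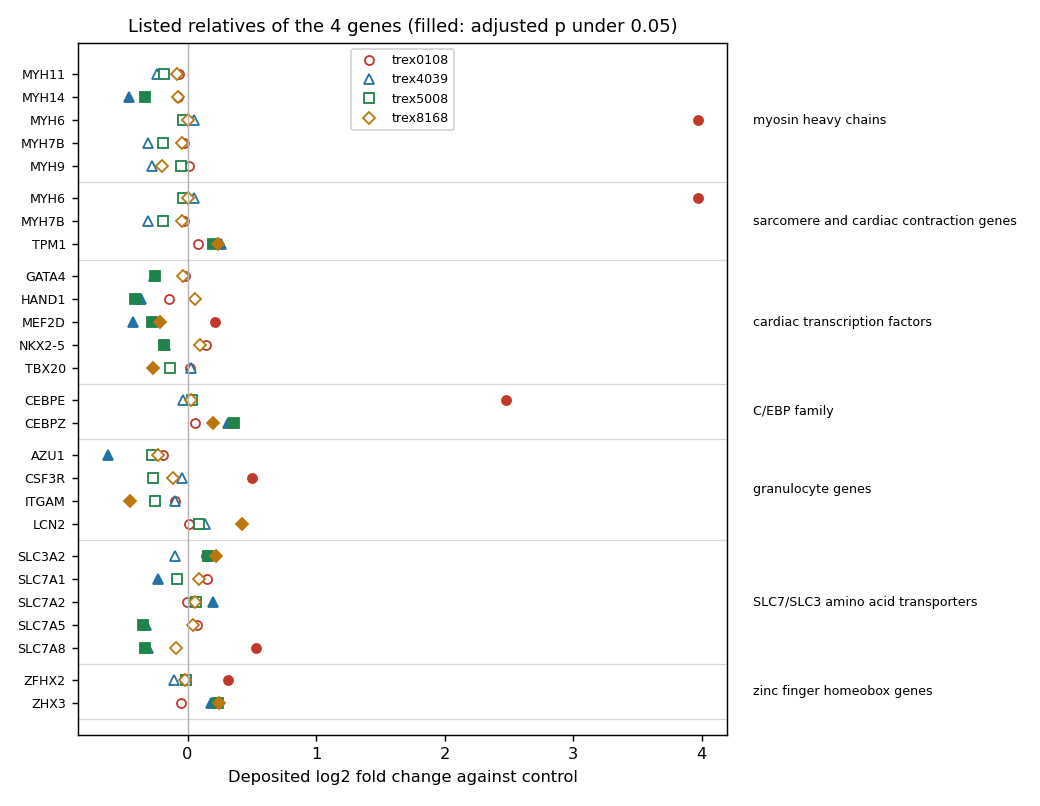
The horizontal axis is the deposited log2 fold change against control, rows are the listed genes of 7 functional lists, and the 4 symbols are the 4 comparisons, filled where the adjusted p is under 0.05. In trex0108 MYH6, CEBPE, SLC7A8 and ZFHX2 are filled in their own lists at 3.97, 2.47, 0.53 and 0.32; the other filled points of that comparison are MEF2D at 0.22 and CSF3R at 0.51.

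The named rows closest in pattern were sought by Euclidean distance over the 4 deposited log2 fold changes, among rows with a mean of at least 50. For MYH6 they were AGXT, KLK7 and WNT8A, with distances of 0.318, 0.589 and 0.960 and trex0108 values of 4.21, 3.42 and 3.04 per the authors' deposited table. For CEBPE they were PLXDC2, BZRAP1 and TMEM190 (0.457, 0.514 and 0.518), with trex0108 values of 2.06, 2.98 and 2.14 per the authors' deposited table. SLC7A8 had much closer rows: CYP2S1, MMP15 and C1orf145 lay at 0.0417, 0.0781 and 0.0796. For ZFHX2 they were TFPT, ALX1 and SLC24A1 at 0.0755, 0.0951 and 0.0992. None of these 12 rows is on chromosome 14, which holds 366 of the 11230 listed rows, so nothing is read from this. CEBPE, with a mean of 32.7 over all libraries, could not be named for the other genes. The 4 comparisons share the control libraries, so their values are not independent.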

How the data were processed

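The table analysed was made by the authors. The submitters' processing notes name the aligners STAR 2.5.1b and Bowtie2 2.2.1, DESeq2 1.14.1 and DESeq, Cufflinks, and bedtools, on hg19 (GRCh37); what each did, the strand setting of the counting and any filters are not stated in the sources used. The deposited signal columns hold the authors' mean normalised counts per group. The deposited log2 columns hold the authors' fold changes of each target group against control, and adjusted values stand in the deposited p-value columns. The deposited score columns hold the authors' calls, which equalled an adjusted p under 0.1 with 0 mismatches. There are no values per library, so depth is unknown, the edgeR test planned for counts was not run and no replicate could be left out. The labels call the libraries biological triplicates.

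With Python 3.11.15 and pandas 2.3.3, rows were called at an adjusted p under 0.05, log2 ratios of means were formed with a pseudocount of 1 and printed folds without one, and gaps were measured between closest ends. Counting and distance steps were tested on simulated data. The 4 genes and all lists were chosen with earlier results of these data known. Named were the 4 genes, CTD-2201G16.1, named or called rows within 500 kb of it, 3 rows most like each gene, and up to 4 called rows per list, direction and comparison. Alternatives were other thresholds, a mean of at least 50, other pseudocounts, recentring, windows, distances and centre. Promoters come from RefSeq (GRCh38.p14); all 4 symbols matched.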

Additional observations from a re-analysis of the deposited data

How the results depend on the processing

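The counts of members called stayed within 1.5-fold of the reported ones at adjusted p under 0.01 or 0.1 and among rows with a mean of at least 50. With that minimum mean, 3 members were higher in trex0108 instead of 4, since CEBPE falls below it. Of the 4 members, 3 have a row only because they pass 0.1 in trex0108 alone. Their calls had little room to change, and nothing is read from this stability. For the log2 fold changes of the 4 genes, 60 of 64 alternative values lay within 1.5-fold, none of the called values changed sign, and 4 moved further, all for CEBPE. In trex0108 CEBPE stood at 4.71, 4.84 and 3.42 by the log2 ratio of means with a pseudocount of 1, 0.5 and 10, against 2.47 deposited. In trex4039 it stood at -0.69 with 0.5. The choice of pseudocount weighs most on means this low. Without any pseudocount the ratio in trex0108 was 31.7-fold, and why the deposited value is smaller was not tested. Around CTD-2201G16.1, 43 of 56 alternative counts stayed within 1.5-fold. Among rows with a mean of at least 50, 3 were higher in trex0108 instead of 5, since CEBPE and CATG00000018307.1 fall below it. With a window of 250 kb, 0 were higher in trex4039, trex5008 and trex8168, from 1, 1 and 2. With 1000 kb, 2, 2 and 5 were higher and 16, 12 and 3 lower, from 4, 3 and 1. The wider window adds 19 rows to the 11 within 500 kb, and nothing is read from the larger counts. Over all rows with an adjusted p, 37.1%, 29.8% and 14.6% were higher and 33.7%, 24.3% and 6.45% lower in these 3 comparisons. Within 500 kb at an adjusted p under 0.01, 0 rows were higher in trex5008 and 1 in trex8168. With midpoint distances 1 was higher in trex8168. Of the 3 rows most like CEBPE, 1 remained with ratios of means. No paired analysis was possible because the table has no values per library and the labels give no shared replicate numbers. Leaving out each library was not run for the same reason, and depth is unknown.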
